A study of Rattus norvegicus with 24 samples.

Results

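Translation initiation and elongation factor genes were taken from the table of expression values by symbol. Every row whose symbol begins with Eif1 to Eif6, Eef1 or Eef2 was a member, which gave 61 of the 17711 rows of the table, none of them a row that joins several symbols. The members hold 49 genes counted as core factors and 12 regulators or genes that match by name alone, such as the eIF2 kinases, the eIF4E-binding proteins and the eEF2 kinase. Eif4a3, a helicase of the exon junction complex, was counted with the core factors. Levels were measured in striatum and in whisker follicles, both taken from male Sprague-Dawley rats with an intravenous catheter, trained to press a lever. Methamphetamine (MA) rats received 0.05 mg/kg of the drug in saline at each infusion, in sessions of 2 h over 16 days, and saline (SA) rats received saline alone on the same schedule. Poly(A) RNA was sequenced from 6 libraries for each treatment in each tissue, 24 in all, and per the study both tissues came from the same animals. Age is not given in the sources used here, and both groups carried the same surgery and training. Levels are FPKM, sequenced fragments scaled to the length of the transcript and to the size of the library, so that levels of different genes can be set side by side. Levels in striatum and follicle differ in scale.

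Initiation begins when eIF2 brings the initiator tRNA to the small ribosomal subunit, where eIF1, eIF1A, eIF3 and eIF5 help to choose the start codon. The mRNA is recruited through its cap by eIF4E, the scaffold eIF4G and the helicase eIF4A, and the 4E-BPs (Eif4ebp genes) keep eIF4E from that scaffold. eIF2B recharges eIF2, and the eIF2 kinases block this step in stress. In elongation eEF1A delivers each aminoacyl-tRNA, the eEF1B subunits recharge eEF1A, eEF2 moves the ribosome along and eEF2 kinase switches eEF2 off. Several of these genes exist as a widely used form and a form known from neurons, of which Eef1a1 and Eef1a2 are the textbook pair. Many elongation factor and ribosomal protein mRNAs start with a C and a run of pyrimidines, the 5′ terminal oligopyrimidine (TOP) motif, through which mTOR signaling controls their translation.

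The start windows of 4 members on which the results turn show how these genes differ at that motif. They run from 10 bases before the annotated transcript start through the first 20 transcribed bases, 5′ to 3′ on the strand of the gene, in RefSeq of the rat assembly GRCr8. Capitals mark a run that begins with C and continues with at least 5 bases that are each C or T, looked for on the gene strand alone from 5 bases before to 12 bases after the start. Eef1a1 (chr8:88225050-88225079, minus strand) and Eef1a2 (chr3:188652614-188652643, minus strand) encode the pair of eEF1A proteins, Eef1b2 (chr9:72074081-72074110, plus strand) encodes the exchange factor of eEF1A, and Eif3f (chr1:172369052-172369081, plus strand) a subunit of eIF3.
Eef1a1: ttggacgttCTTTTTCgcaacgggtttgcc
Eef1a2: gggtacatctctgcagctgcgtcctctcgg
Eef1b2: ggccggtcccggCCCTTTTTCTccctcagc
Eif3f: cccttccgttctagCCTCTCTCtttctcgg
A run was found for 9 of the 54 members with a promoter in the reference (9 of 57 promoters, 15.8%), against 10.7% of all 33469 promoters. Those members were Eef1a1, Eef1b2, Eef1e1, Eif1, Eif2a, Eif2b5, Eif3f, Eif3m and Eif4g3. Eef1a2 has no such run in the span searched, although one lies further downstream in the bases shown. A match is a description of the letters, and the expression table was made on another assembly (rn6).

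Read counts are not part of the table, which leaves the depth behind each value unknown, and the spread between libraries is the error given here. The libraries are named by the index of 0 to 5 that their columns carry. The FPKM of a library summed to 348717 to 418892 in the striatum and to 774567 to 1.52e+06 in the whisker follicle. All members together made up 0.927% to 0.990% of that sum in the striatum and 0.910% to 1.23% in the follicle. Of the 61 members, 60 had a mean of at least 1 FPKM in each tissue and could be tested there, the exception being Eif5b in the striatum and Eef1a2 in the follicle. The tissue labels fit the marker genes, with striatal neuron markers summing to 2076 to 5345 FPKM in the striatum and 2.23 to 23.8 in the follicle, and hair follicle markers to 25.1 to 56.5 and 61133 to 117725. In bulk tissue, fewer cells of a type and less RNA per cell cannot be told apart.

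In the striatum no translation factor gene differed between MA and SA rats when both an adjusted p below 0.05 and a 1.5-fold difference were asked for (limma on log2(FPKM + 1), 0 of 60 members, with 0.00943% of all 10607 rows called). At an unadjusted p under 0.05, 3 of 60 members (5%) had a higher level in MA and 0 a lower one, against 8.26% of all rows, of which 5.38% were higher and 2.88% lower. These were Eif4ebp1, Eif4ebp2 and Eef2. No member had MA libraries all above or all below the SA libraries, which held for 0.198% and 0.160% of all rows. The median difference was 0.01 over the members and 0.00 over all rows (log2), with 34 of 60 members (56.7%) above 0 against 50.5% of all rows.

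Among the repressors of eIF4E, Eif4ebp1 had the largest difference of all members in the striatum. Its FPKM was 8.09, 10.9 and 12.8 in SA (lowest, median and highest of 6 libraries, as in all such triplets) and 11.5, 14.5 and 24.5 in MA, a log2 difference of 0.53 (standard error 0.18, adjusted p = 0.577 in limma). The groups overlapped, and MA libraries 3 and 4, at 21.3 and 24.5, were the highest. Eif4ebp2, which binds eIF4E in the same way and is the main form known from brain, was at 6.89, 9.55 and 11.3 in SA and 8.44, 12.3 and 12.7 in MA, with a log2 difference of 0.27 (standard error 0.12, adjusted p = 0.603 in limma). Eif4ebp3 was at 5.06, 8.32 and 11.4 and 3.86, 6.58 and 9.20, a difference of -0.29 (standard error 0.20, adjusted p = 0.709 in limma). The differences of Eif4ebp1 and Eif4ebp2 were thus above 0 and that of Eif4ebp3 below 0, and none passed the test. Eif4enif1, the carrier that takes eIF4E into the nucleus, was at 6.13 ± 0.971 in SA and 5.70 ± 1.02 in MA (mean ± SD, n = 6).

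Eef2, the translocase of elongation and the member with the highest mean level in the striatum, was at 455, 499.9 and 567 FPKM in SA and 518, 578 and 808 in MA, a log2 difference of 0.25 (standard error 0.11, adjusted p = 0.602 in limma). MA library 4 stood apart at 808, and the other 5 MA libraries, at 518 to 601, lay within or just above the SA range. Eef1a1 was at 104, 115 and 129.7 and 103, 132 and 167 (log2 difference 0.19, standard error 0.11, adjusted p = 0.647 in limma), again with MA library 4 the highest. The eEF1B subunits Eef1b2, Eef1d and Eef1g had differences of 0.13, 0.12 and 0.18 (log2), so 4 of the 5 eEF1 genes were above 0. The fifth, the neuronal form Eef1a2, was at 333, 432 and 504 in SA and 334, 421 and 494 in MA (log2 difference -0.02, standard error 0.12, adjusted p = 0.972 in limma). Eef2k, the kinase that inactivates eEF2, was at 13.1 ± 2.34 and 13.2 ± 2.02 (mean ± SD, n = 6).

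MA libraries 3 and 4 also had the highest sums of erythrocyte markers. The summed FPKM of the 3 of 5 such markers in the table, none at 0, was 1933 and 698.2 in them, 239.8 to 490.6 in the other MA libraries and 124.8 to 299.7 in SA. Without these 2 libraries, 0 of 60 members had an unadjusted p under 0.05 (3.81% of all rows did), and the log2 difference of Eif4ebp1 was 0.28, that of Eif4ebp2 0.21 and that of Eef2 0.17. The same libraries held the highest Eif4ebp1 values, and MA library 4 the highest Eef2 value. Leaving them out thus lowers these differences in any case, and fewer MA libraries remain. All 6 microglia markers were above 0, and their sum was 186.0 to 282.4 in SA and 162.9 to 470.8 in MA, the highest again in MA library 4. Of 5 astrocyte markers 4 were above 0, and their sum was also highest in MA library 4, at 961.9. Markers of neurons in general had their lowest sum there, at 586.4. Striatal neuron markers did not, with 3568 in MA library 4, 2149 to 5345 in SA and the lowest sum in MA library 5, at 2076. The oligodendrocyte sum was 13939 in MA library 4, but highest in SA library 3, at 14323. The part of any of these cell types in the differences was not tested.

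The initiation factors of the striatum varied little. Eif1, which guards start codon choice, was at 143 ± 7.58 in SA and 155 ± 10.8 in MA (mean ± SD, n = 6), with a log2 difference of 0.11 (standard error 0.07, adjusted p = 0.661 in limma). For Eif5a, the hypusine-bearing factor that helps ribosomes past difficult sequences, the levels were 178 ± 9.64 and 195 ± 19.9, a difference of 0.12. The eIF3 subunits had 8 of 13 differences above 0 and a median of 0.01, the largest being that of Eif3h at 0.20. Of 11 genes of eIF2, eIF2B and related carriers, 5 were above 0, with Eif2b1, a regulatory subunit of eIF2B, at 0.16, and the eIF2 subunits Eif2s1, Eif2s2, Eif2s3x and Eif2s3y between -0.09 and 0.02. All 4 eIF2 kinases were within 0.07 of 0. Among the genes grouped as cap-binding and unwinding factors, which include Eif4a3 of the exon junction complex, 5 of 10 were above 0. Their differences ran from -0.13 for the helicase Eif4a2 to 0.15 for Eif4g2, an eIF4G relative that does not bind eIF4E. Eif4a1 was at 0.01, the cap-binding proteins Eif4e, Eif4e2 and Eif4e3 at -0.11, 0.12 and 0.05, and the scaffold Eif4g3 at -0.04.

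**Figure D1:**
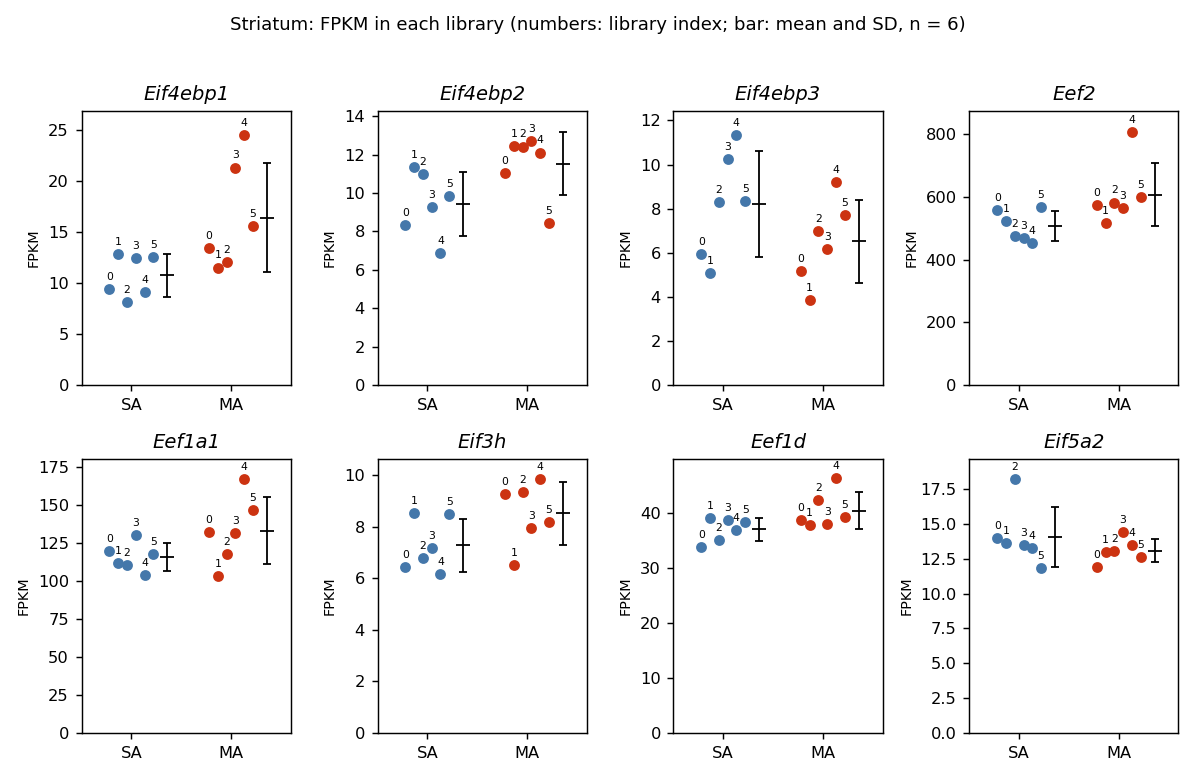
FPKM of 8 members in each striatum library of SA (blue) and MA (red) rats, with the library index beside each point and the mean and SD (n = 6) as a bar. Eif4ebp1, Eef2 and Eef1a1 reached their highest values in MA library 4 (24.5, 807.5 and 166.8), and in every panel the groups overlap.

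In the whisker follicle, too, 0 of 60 members passed the threshold when all 12 libraries were used, as did 0% of 9138 rows. At an unadjusted p under 0.05, 3 members (5%) had a higher level in MA, which were Eif3h, Eef2k and Eef1a1, and 0 a lower one, against 10.4% of all rows (5.25% higher, 5.18% lower). The members' differences lay between -0.67 and 1.20 (log2), a wider range than the -0.29 to 0.53 of the striatum, and their median was -0.03, against -0.01 over all rows, with 26 of 60 members (43.3%) above 0 against 48.3% of all rows.

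Eif3h and Eef2k were the members whose MA libraries all lay above the SA libraries, 2 of 60 (3.33%) against 0.197% of all rows, and 0 members had them all below (0.285% of all rows). Eif3h and Eif3f encode the eIF3 subunits that carry an MPN domain. Its FPKM was 2.32, 7.87 and 14.6 in SA and 15.6, 18.0 and 24.8 in MA, with a log2 difference of 1.20 (standard error 0.30, adjusted p = 0.465 in limma). The level of Eif3h was far below that of Eif3f, which had a median of 1649 in SA. Eif3h and Eif3e had SA means of 8.60 and 17.8 FPKM, below the 53.2 to 1629 of the other eIF3 subunits. The cause of these low values was not tested, and both genes are uncertain for that reason. Eef2k was at 14.1, 15.1 and 16.2 in SA and 16.6, 19.5 and 21.7 in MA, a difference of 0.34 (standard error 0.09, adjusted p = 0.465 in limma). The MA libraries were at 16.6 to 17.6 or at 21.3 to 21.7, and every SA library was below them. The target of the kinase, Eef2, was at 519, 724 and 1212 in SA and 882, 984 and 1077 in MA (log2 difference 0.37, standard error 0.18, adjusted p = 0.465 in limma), and here SA library 0 lay above all MA libraries.

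Many members were spread widely among the SA rats themselves. The highest SA library was 2.38 times the lowest at the median over 30 short-protein members and 1.88 times over 30 long-protein members, against 1.32 and 1.29 in the striatum (short meaning up to 400 residues, by textbook size). The clearest pattern was an opposite course of some members across the same libraries. Eef1b2 was lowest in SA library 0 at 419 FPKM and highest in SA library 5 at 2033, while Eef1a1, whose protein Eef1b2 recharges, was highest in SA library 0 at 462 and lowest in SA library 5 at 72.2. The level of Eef1b2 over that of Eef1a1 therefore ran from 0.906 in SA library 0 to 28.1 in SA library 5, with a median of 6.31, against 1.13 to 4.26 in MA and 0.569 to 0.919 over all striatum libraries. The 2 eIF3 subunits Eif3f and Eif3a did the same, with a ratio of 2.57 in SA library 0 and 64.5 in SA library 5, against 3.42 to 12.7 in MA and 3.43 to 8.28 in the striatum. MA libraries lay between these extremes, and the outlying SA libraries are at both ends.

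SA library 0 stood apart from the other 5. Among short-protein members it was the lowest SA library for 15 of 30, and among long-protein members the highest for 13 of 30. Other SA libraries were often at an end too. SA library 4 was the highest for 13 of 30 short-protein members. SA library 5 was the lowest for 7 and the highest for 9 of these, and the lowest for 9 and the highest for 8 long-protein members. The erythrocyte markers of SA library 0 summed to 2.44 FPKM, against 40.8 to 169.4 in the other SA libraries and 3.08 to 150.1 in MA. Its markers of neurons in general summed to 12.6, against 27.2 to 38.5 and 10.8 to 25.0. The hair follicle markers, at 89959, were within the range of the others. What set this library apart was not tested. Without it, 12 of 60 members (20%) passed the threshold, against 13.5% of 9059 rows. Of these, 5 were higher in MA (8.33%, with 7.41% of all rows) and 7 lower (11.7%, with 6.05% of all rows). With all 12 libraries kept and weighted by their spread, 10 passed, all of them among these 12. The share of all rows in that weighted fit is not given here, so the 10 cannot be set against the whole table. Both fits use the same libraries, so the overlap is no separate support. No other single library, when left out, gave a call.

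Without SA library 0, the levels of the 5 SA libraries left can be set beside those of the 6 MA libraries. SA library 0 was singled out after each library had been left out in turn. SA library 5, the lowest SA library for Eef1a1, Eif3a, Eif2ak1 and Eif4ebp2, was kept. The adjusted p of this fit thus rest on a choice made on the same values and cannot decide on an MA effect. Higher in MA was Eef1a1, at 72.2, 174 and 281 in SA and 258, 361 and 421 in MA (log2 difference 1.03, standard error 0.29, adjusted p = 0.0298 in limma). Eif3a, the largest subunit and scaffold of eIF3, was at 43.2, 71.8 and 125 and 111, 149 and 219 (log2 difference 1.02, standard error 0.25, adjusted p = 0.0216 in limma). Eif2ak1, the heme-regulated eIF2 kinase, was at 3.82, 4.81 and 9.59 and 8.74, 10.8 and 14.7 (log2 difference 0.80, standard error 0.21, adjusted p = 0.0244 in limma). The repressor Eif4ebp2 was at 0.752, 1.67 and 3.64 and 3.15, 6.01 and 10.7 (log2 difference 1.30, standard error 0.32, adjusted p = 0.0220 in limma). For each of these 4 genes SA library 0, at 462, 248, 16.4 and 15.5, was above every MA library. Eif3h, the fifth, had a difference of 1.14 (standard error 0.32, adjusted p = 0.0287 in limma).

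In the same fit without SA library 0, Eef1b2 was lower in MA. Its FPKM was 1046, 1436 and 2033 in SA and 477, 749 and 1098 in MA (log2 difference -0.93, standard error 0.24, adjusted p = 0.0240 in limma). Its partner in the eEF1B complex, Eef1g, was at 872, 1204 and 1501 and 604, 772 and 858 (log2 difference -0.59, standard error 0.17, adjusted p = 0.0297 in limma). Eef1g was also the member whose MA libraries all lay below the 5 SA libraries (1 of 60, 1.67%, with 4.57% of all rows), while those of Eef2, Eef2k and Eif3h all lay above (5%, with 2.65% of all rows). Eif4ebp1 was at 82.5, 118 and 156 and 54.6, 72.0 and 95.1 (log2 difference -0.62, standard error 0.17, adjusted p = 0.0279 in limma), a difference opposite in sign to that of its paralog Eif4ebp2. Eif1b, the close relative of Eif1, was at 41.4, 70.5 and 84.0 and 31.8, 41.9 and 53.1 (log2 difference -0.67, standard error 0.18, adjusted p = 0.0260 in limma), whereas Eif1 itself was at 0.41 (log2) and did not pass. Subunits of eIF3 completed the group, with differences of -0.93 for Eif3e, -0.73 for Eif3f and -0.82 for Eif3k, the last named here after its values were seen. The 13 eIF3 subunits thus held 2 calls up and 3 down, beside 7.41% and 6.05% of all rows. The other subunits, among them the core subunits Eif3b and Eif3c, were between -0.32 and 0.24. None of 11 eIF2 and eIF2B genes and none of 10 cap-binding and unwinding factors passed (adjusted p of at least 0.125 and 0.0570 in limma). Over all rows 13.5% were called, so with so few genes these counts cannot set the groups apart. Eif5a at -0.58 and Eef1d at -0.60 did not pass either. Among the called members, the TOP-like start run stood in Eef1a1, which was higher, and in Eef1b2 and Eif3f, which were lower. It was not found in Eef1g, Eif3a, Eif3k, Eif1b, Eif2ak1 and Eif4ebp2, and Eif3e, Eif3h and Eif4ebp1 had no promoter in the reference. Eef1e1, Eif1, Eif2a, Eif2b5, Eif3m and Eif4g3 had a run and were not called.

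**Figure D2:**
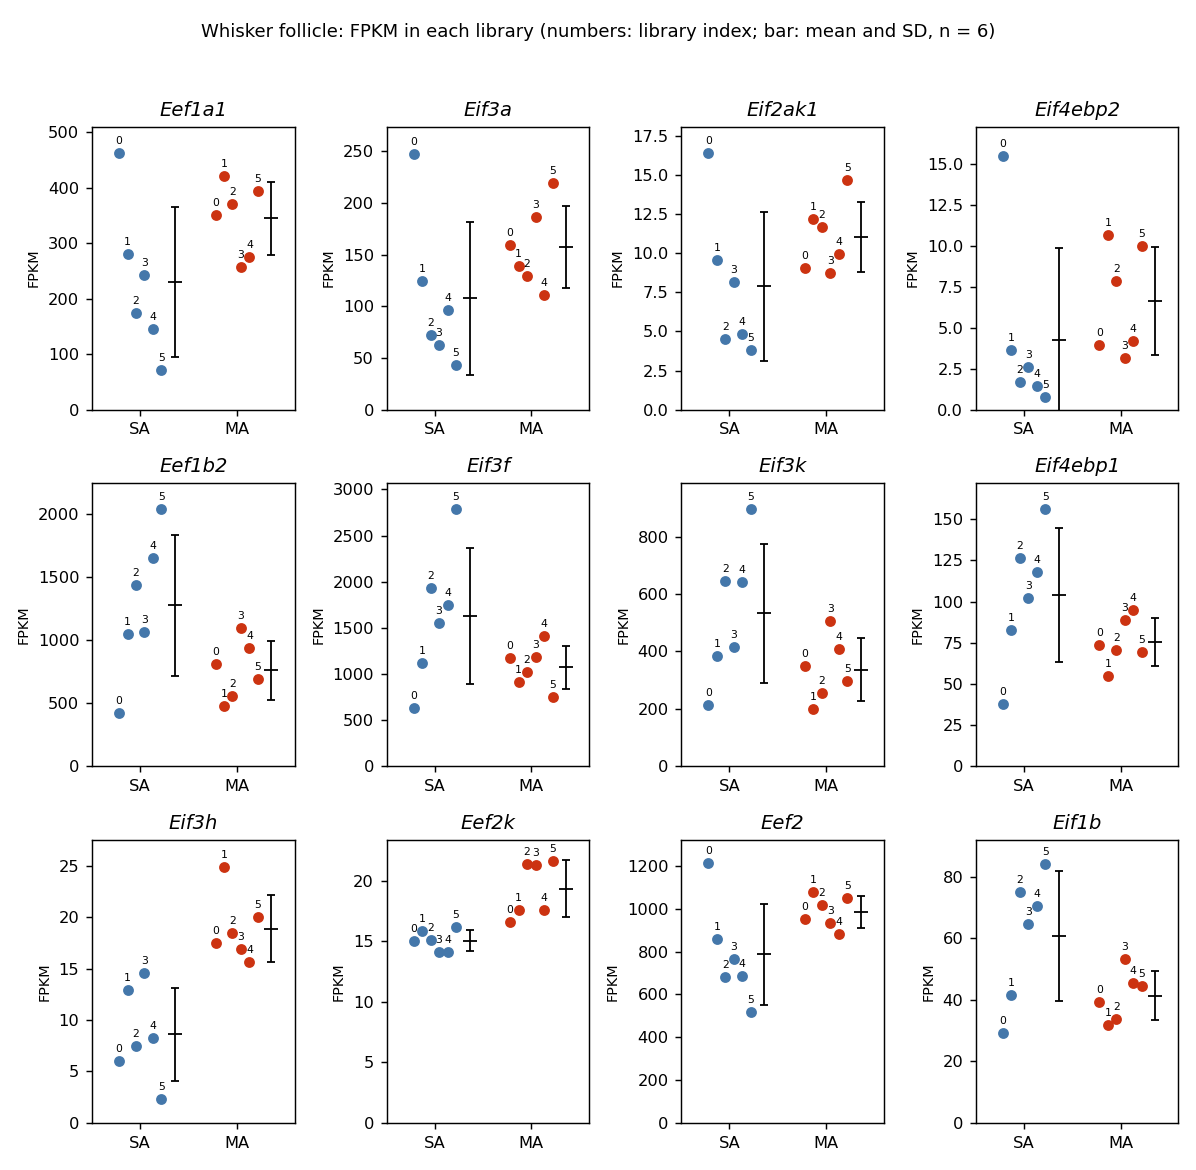
FPKM of 12 members in each whisker follicle library of SA (blue) and MA (red) rats, with the library index beside each point and the mean and SD (n = 6) as a bar. SA library 0 is above all MA libraries in the top row and below them in the second row except for 1 MA library of Eif3k, while for Eif3h and Eef2k the MA libraries lie above all SA libraries.

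**Figure D3:**
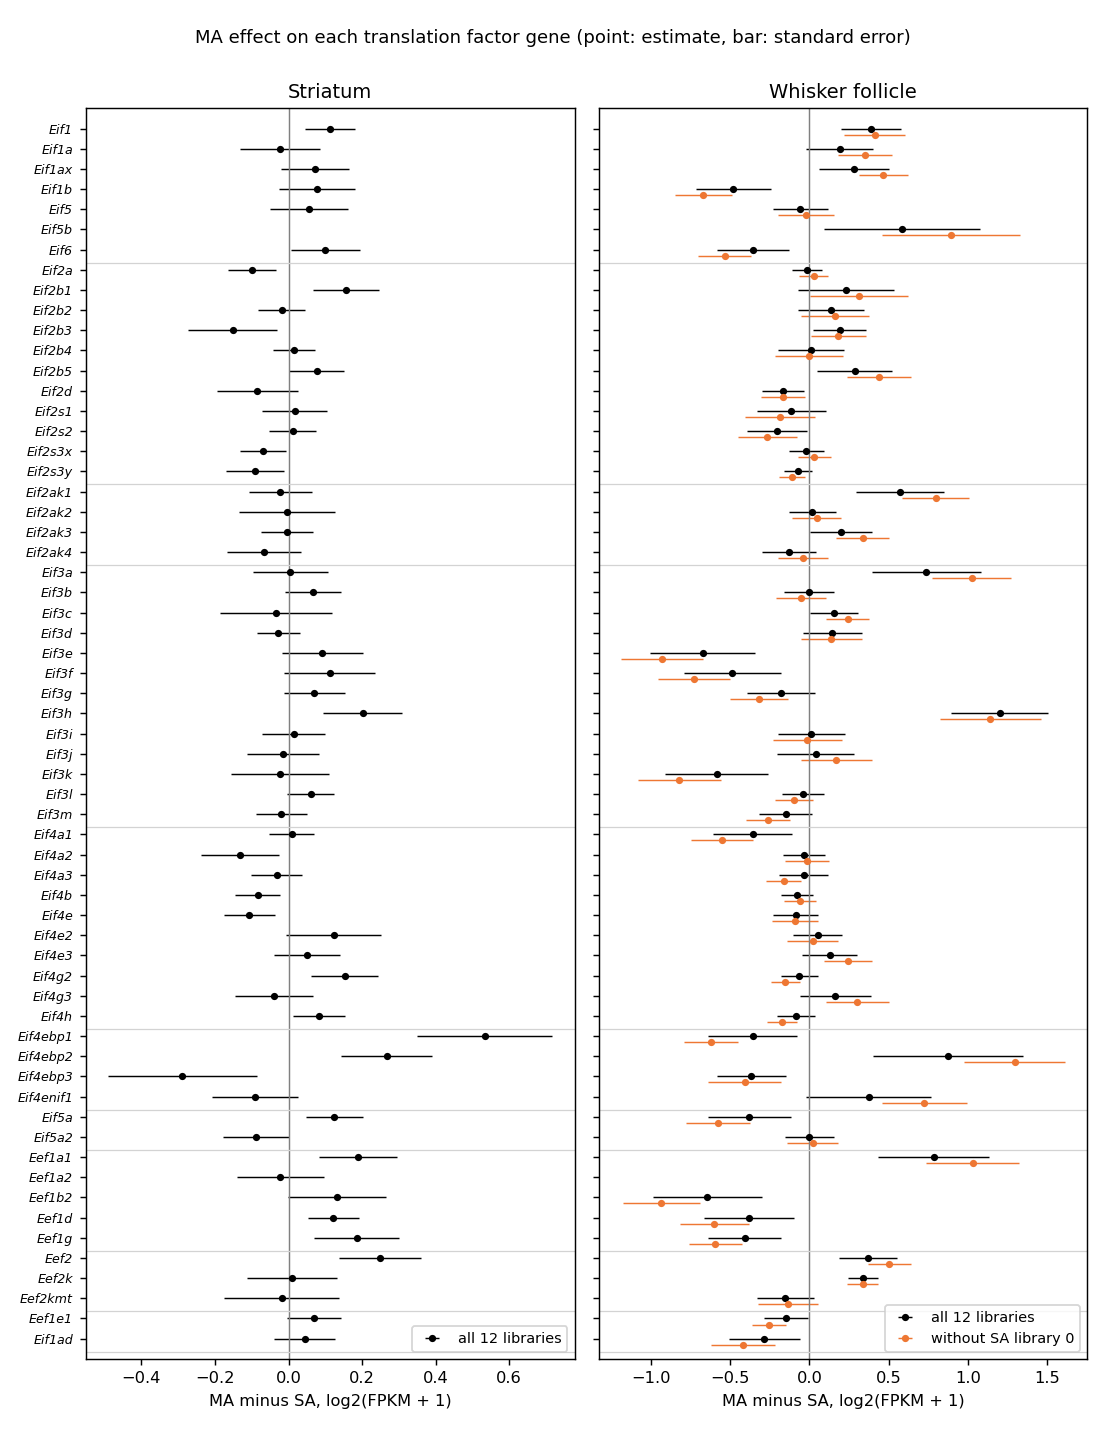
Difference between MA and SA in log2(FPKM + 1) for each member tested, with its standard error, in the striatum (left) and the whisker follicle (right), where orange points leave out SA library 0. Horizontal lines part the functional groups. The horizontal scales differ, and the follicle differences run from -0.67 to 1.20 with all libraries.

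Members with short and with long proteins were also set apart, beside the genes of the cytosolic ribosomal proteins, which are short. In the striatum 21 of 30 short-protein members were above 0 with a median of 0.07, and 13 of 30 long-protein members with a median of -0.01 (log2). The 67 cytosolic ribosomal protein genes tested had 62 differences above 0, a median of 0.25 and 0 calls. In the follicle 11 of 30 short-protein members were above 0, with a median of -0.13 that turned to 0.02 after quantile normalization, and 15 of 30 long-protein members, with a median of 0.00. The ribosomal protein genes there had 78 of 83 differences below 0 and a median of -0.49, and without SA library 0, 45 of 84 were called lower, beside 6.05% of all rows. In that fit 5 short-protein members were called lower and 2 higher, against 2 and 3 among the long-protein members, beside 6.05% of all rows called lower and 7.41% higher. A score for each library, the median deviation of its members from their means over the 12 libraries, ran from -0.45 in MA library 1 to 0.48 in SA library 4 for the short class of the follicle, and from -0.17 to 0.15 for the long class. In the striatum the scores ran from -0.07 to 0.16 and from -0.05 to 0.08, with MA library 4 highest for the short class. SA and MA libraries overlapped in all 4 sets of scores.

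**Figure D4:**
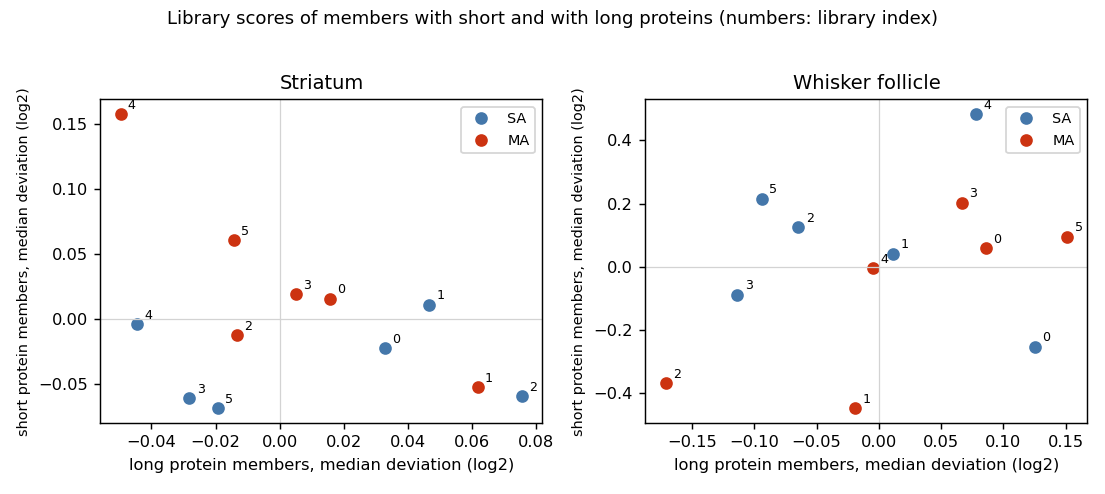
Score of the 30 short-protein members against that of the long-protein members in each library, in log2 units, for the striatum (left) and the whisker follicle (right), with SA in blue and MA in red and the library index beside each point. The groups overlap on both axes, and the scales differ between panels.

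The MA effect was then compared between the tissues by the interaction term of a limma fit to all 24 libraries, which treats striatum and follicle of an animal as independent because the columns are not tied to rats. None of 61 members passed (0.00910% of 10985 rows did), and 6 had an unadjusted p under 0.05 (9.84%, against 11.4% of all rows). Among these, Eif3h (log2 difference 1.00, standard error 0.34, adjusted p = 0.426 in limma) and Eef2k (0.33) had a higher difference in the follicle than in the striatum. Eif4ebp1 (log2 difference -0.89, standard error 0.35, adjusted p = 0.426 in limma), Eef1g (-0.59), Eif3e (-0.77) and Eif1b (-0.56) had a lower difference in the follicle than in the striatum. Without SA library 0 of the follicle 12 members passed (19.7%, with 11.3% of 10990 rows), the first of them Eif4ebp1 at -1.15 (standard error 0.26, adjusted p = 0.0112 in limma). Its log2 difference was 0.53 in the striatum and -0.62 in the follicle in those libraries. In the other direction 3 members passed, which were Eif3a (1.02), Eif2ak1 (0.82) and Eif4ebp2 (1.03). The fit without SA library 0 was added after the data were seen, and that library was singled out on the same values. Its adjusted p therefore cannot decide whether the MA effect differs between the tissues.

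More members differed between the tissues than between the treatments. Between striatum and follicle of the SA rats, again fitted without pairing the tissues of an animal, 53 of 61 members (86.9%) passed the threshold, as did 74.5% of 10952 rows, and the balance of directions was unlike that of the table as a whole. Of the members, 10 (16.4%) were higher in the striatum, against 42.5% of all rows, and 43 (70.5%) were lower, against 32% of all rows. The median difference, striatum minus follicle, was -1.31 over the members and 0.24 over all rows (log2). Since the FPKM of the follicle sum to more, the scale was varied. With a common median in every library the split was 7 to 48 (34.3% and 41.1% of all rows) and the median of all rows -0.17. With quantile normalization it was 9 to 41 (34.3% and 37.4%) and -0.10. As a share of a library's summed FPKM, the members took 0.968% in the striatum and 1.08% in the follicle at the median of 6 SA libraries.

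Eef1a2, Eif4g3, Eif5a2 and Eif4a2 led the genes higher in the striatum. Eef1a2 was at 333, 432 and 504 FPKM in the striatum of SA rats and at 0.292, 0.504, 0, 0.435, 0.269 and 2.08 in SA libraries 0 to 5 of the follicle, a log2 difference of 8.16 (standard error 0.22, adjusted p = 3.06e-13 in limma). It made up 78.5% ± 3.57 (SD, n = 6) of the Eef1a1 and Eef1a2 levels together in the striatum and 0.567% ± 1.10 in the follicle. SA library 5 of the follicle also had the highest sums of striatal neuron and oligodendrocyte markers, 23.8 and 66.5 FPKM against at most 6.12 and 8.94 in the other 11, and their part in its Eef1a2 was not tested. Muscle also uses Eef1a2, and skeletal muscle markers summed to 9.99 to 18.4 FPKM in the striatum and 7.64 to 16.5 in the follicle of SA rats.

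Eif4g3, an eIF4G scaffold, was at 20.4, 25.4 and 27.6 in the striatum and 1.65, 2.94 and 5.54 in the follicle (log2 difference 2.66, standard error 0.18, adjusted p = 4.45e-09 in limma). Eif5a2 was at 11.8, 13.5 and 18.2 and 0.954, 1.70 and 1.83 (log2 difference 2.54, standard error 0.12, adjusted p = 1.57e-10 in limma), and Eif4a2 at 225, 271 and 295 and 43.1, 50.1 and 69.5 (log2 difference 2.29, standard error 0.14, adjusted p = 1.39e-09 in limma). In none of the 4 did the tissues overlap. Their widely used partners ran the other way, with Eif5a at -2.98 and Eif4a1 at -2.78 (both called lower in the striatum). For Eef1a1 the call depended on scale, at -0.77 (standard error 0.33, adjusted p = 0.0453 in limma) as deposited and 0.01 after quantile normalization. Eif4a2 therefore made up 77.9% ± 1.72 of Eif4a1 and Eif4a2 in the striatum and 10.2% ± 4.92 in the follicle, and Eif5a2 7.32% ± 1.18 and 0.125% ± 0.0681 of Eif5a and Eif5a2. Eif4enif1 (log2 difference 1.64) and Eif2ak1 (21.8 ± 2.21 against 7.88 ± 4.75 FPKM, mean ± SD) came next, and the eIF2 kinases Eif2ak3 (0.84) and Eif2ak4 (0.72) and the factors Eif1b (0.87) and Eif4ebp2 (1.43) completed the 10. Of these last 4 genes, Eif4ebp2 alone was called higher with a common median and Eif1b alone with quantile normalization, where Eif2ak4 turned to -0.24. Eif2ak2, the kinase activated by double-stranded RNA, was at 4.38 ± 0.723 and 3.77 ± 0.659 (mean ± SD, n = 6) and did not pass.

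As FPKM, genes of eIF3, eIF2 and eIF2B were lower in the striatum than in the follicle. All 13 eIF3 subunits and all 11 genes of eIF2, eIF2B and related carriers had a difference below 0, which also held with a common median and with quantile normalization, and 23 of these 24 passed as deposited, Eif3h being the exception. Scaling each gene to the summed FPKM of its library was not run. The SA median of that sum was 353474 in the striatum and 1.24e+06 in the follicle. Some of these genes, such as Eif3c (means of 48.3 and 109 FPKM), differed by less than the sums and would change direction on that scale. Others, such as Eif2b4 and Eif2s2, differed by more. Eif2b4, the delta subunit of eIF2B, was at 16.8, 17.4 and 17.8 in the striatum and 182, 279 and 385 in the follicle (log2 difference -3.90, standard error 0.14, adjusted p = 6.12e-12 in limma). Eif2s2, the beta subunit of eIF2, was at 24.5, 27.0 and 28.9 and 230.2, 312 and 427 (log2 difference -3.47, standard error 0.14, adjusted p = 1.82e-11 in limma). Both pairs of ranges were far apart. Further members of the group were Eif2s1 at -3.08, Eif2b1 at -3.42 and Eif3f, the member with the highest mean in the follicle, at -3.32 with 136, 147 and 159.6 FPKM in the striatum and 637, 1649 and 2787 in the follicle. The gamma subunit genes of eIF2, Eif2s3x and Eif2s3y, lie on the X and the Y chromosome. Their levels were near each other, with Eif2s3y at 1.03 to 1.29 times Eif2s3x in the striatum and 0.722 to 1.21 times in the follicle of SA rats, and their differences were -1.31 and -1.16.

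Of the elongation factors, Eef1b2 was at 71.3, 80.6 and 95.2 FPKM in the striatum and 419, 1248 and 2033 in the follicle (log2 difference -3.82, standard error 0.30, adjusted p = 3.04e-08 in limma), Eef1g at -3.13 and Eef1d at -2.87. Eef2 was lower in the striatum as deposited (log2 difference -0.59, standard error 0.19, adjusted p = 0.00977 in limma) and with a common median, but higher with quantile normalization (1.09), so no direction is given for it. Eef2k, at 13.1 ± 2.34 and 15.1 ± 0.866 (mean ± SD, n = 6), did not pass as deposited or with quantile normalization and was called lower with a common median. The eIF4E repressors split, with Eif4ebp1 (-3.06) and Eif4ebp3 (-3.00) lower in the striatum and Eif4ebp2 higher as deposited, so that Eif4ebp1 made up 53.1% ± 5.60 of Eif4ebp1 and Eif4ebp2 in the striatum and 93.5% ± 11.1 in the follicle. SA library 0 of the follicle was the lowest at 71.0%, and the follicle median was 98.1%. The cap-binding proteins Eif4e (-1.87) and Eif4e2 (-2.19), the helicase Eif4a3 of the exon junction complex (-0.80) and Eif4g2 (-0.67) were lower in the striatum as deposited, and of these Eif4a3 and Eif4g2 did not pass with quantile normalization. Eif4e3 (-0.34) did not reach the fold limit as deposited, but was called lower with a common median and with quantile normalization. Eif4g1, the widely used eIF4G, has no row under that symbol and could not be analysed. Within the eIF3 complex of the striatum, Eif3e was listed at 1.17 ± 0.203 and Eif3h at 7.28 ± 1.03, below the 11.8 to 147.6 of the other 11 subunit means. Genes with near-identical copies, such as Eif1a and Eif1ax, Eif2s3x and Eif2s3y, or Eef1a1 with its pseudogenes, are uncertain, since the counting could have split their reads.

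**Figure D5:**
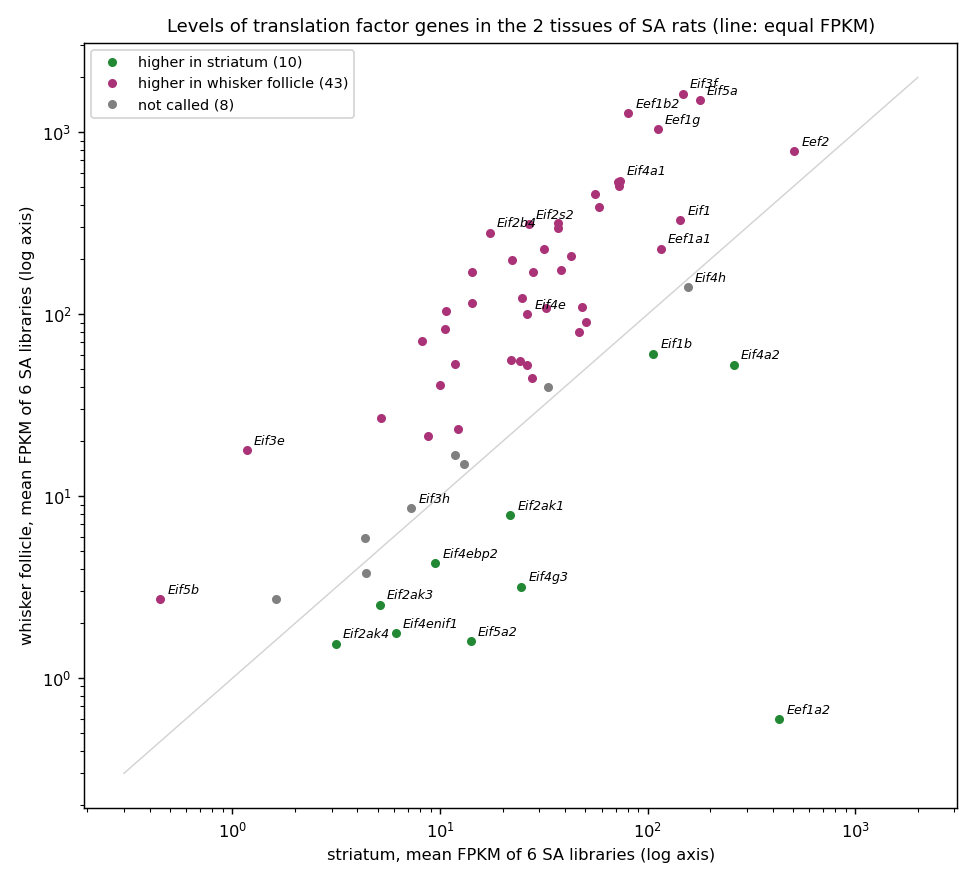
Mean FPKM of each member in 6 SA libraries of the striatum (x axis) and of the whisker follicle (y axis), both on log axes, with the line of equal FPKM. Green points (10) were called higher in the striatum, purple points (43) higher in the follicle and grey points (8) not called. Eef1a2, at 429.0 and 0.597, lies farthest from the line.

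Isoform use was also compared between MA and SA as the share of one form in the sum of its pair, for 7 pairs in 2 tissues, by a two-sided exact permutation test that enumerated every even division of the 12 libraries. None of the 14 shares passed after Benjamini-Hochberg adjustment over the 14. The share of Eif1b in Eif1 and Eif1b in the follicle ran from 7.73% to 28.2% in SA (mean 16.3% ± 7.42) and from 7.14% to 10.6% in MA (8.91% ± 1.32), a mean difference of -7.34 points (exact permutation p = 0.0303, adjusted 0.242). The groups overlapped at the low end of the SA range. In the striatum the share of Eif5a2 in Eif5a and Eif5a2 was 6.37%, 6.86% and 9.60% in SA and 5.52%, 6.33% and 6.98% in MA, a difference of -1.01 points (exact permutation p = 0.0455, adjusted 0.242), which was -0.55 points without SA library 2, the highest. For Eif4h in Eif4b and Eif4h, which both help eIF4A, the striatum share averaged 76.9% ± 1.03 in SA and, in MA, 78.9% ± 2.07 (n = 6, exact permutation p = 0.0519, adjusted 0.242). The Eef1a2 share of the striatum was 78.5% ± 3.57 in SA and 75.8% ± 5.40 in MA (exact permutation p = 0.325, adjusted 0.505) and that of Eif4a2 77.9% ± 1.72 and 76.2% ± 2.26 (exact permutation p = 0.165, adjusted 0.407). The smallest adjusted p of the remaining 9 shares in the exact permutation test was 0.326, for Eef1a2 in the follicle.

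Of 41 genes that work beside these factors but lie outside the symbol rule (release factors, poly(A)-binding proteins, mTOR and MNK kinases, stress response and mitochondrial factors), 38 were in the table and 37 were tested in each tissue. None passed for MA against SA in either tissue with all libraries, and 19 of 37 in the striatum and 20 of 37 in the follicle were above 0. The smallest p in the striatum was that of Pabpc4, a cytosolic poly(A)-binding protein, at 5.37 ± 0.813 FPKM in the SA group and 6.89 ± 0.677 in the MA group (SD over 6 libraries), with a log2 difference of 0.31 (adjusted p = 0.577 in limma). In the follicle it was that of Ddit3, the transcription factor CHOP of the eIF2 stress response, at 41.6 ± 17.9 and 21.9 ± 4.90, with a difference of -0.79 (adjusted p = 0.465 in limma). Without SA library 0, 3 of these 37 genes were called higher and 2 lower in the follicle, beside 7.41% and 6.05% of all rows. The 4 with the smallest p were Ddit3 (-1.05), Tpt1, the translationally controlled tumor protein, itself a TOP mRNA (-0.91), Pdcd4, an inhibitor of eIF4A (1.32), and Pabpc1, the main poly(A)-binding protein (1.21).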

How the data were processed

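Poly(A) RNA-seq was analysed from 12 striatum and 12 whisker follicle libraries of MA and SA rats. The authors deposited 1 table of FPKM values per gene and library; per the labels and the study's methods they trimmed reads with Cutadapt, aligned them to rn6 and ran Cufflinks. The aligner is TopHat2 in the methods and STAR 2.6.0c, with Cufflinks 2.2.1, in the submitters' processing notes. FPKM are not counts, so Cuffdiff was not used and depth is unknown. Libraries were grouped by treatment and tissue, and the column index could not be tied to a rat number.

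log2(FPKM + 1) was compared with limma 3.58.1 (R 4.3.3, trend) over rows with a mean of at least 1 FPKM, with Benjamini-Hochberg adjustment over all rows tested. Calls needed an adjusted p below 0.05 and a 1.5-fold difference, on a scale that understates changes at low levels. Nothing says whether libraries share a litter or batch, so p-values measure the spread between libraries. Code was tested on simulated data. Isoform shares used exact permutation tests (Python 3.11.15). Short and long classes were set by hand from textbook protein sizes, because no protein table was used here. Named members were the 10 with the smallest p in each tissue, the isoform families, the 6 largest tissue differences in each direction and up to 10 called without 1 library. A few others, such as Eif3c, Eif3g, Eif3k and Eif4h, were named after their values were seen. Members, lists and tests were chosen with earlier results of these data known. Alternatives were pseudocounts, filters, scalings, library weights and libraries left out.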

Additional observations from a re-analysis of the deposited data

Results flagged for a closer look

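Within each group of 6 libraries, the gap of the highest or lowest library to its neighbor was compared with the whole range of the group, for 184 sets of levels and isoform shares, and 13 had a gap past the 95% limit of Dixon's test. Chance gives about 1 in 20 such groups.

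In the whisker follicle, SA library 0 stood above the other SA libraries for Eif4ebp2 (15.5 FPKM) and Eif4enif1 (6.61 FPKM), and below them for the share of Eif4ebp1 in Eif4ebp1 and Eif4ebp2 (71.0%) and of Eif4h in Eif4b and Eif4h (55.2%). SA library 5 was the highest for Eef1a2 (2.08 FPKM) and for its share in Eef1a1 and Eef1a2 (2.80%). Eif5a2 was lowest in SA library 4 (0.954 FPKM), and Eif4a2 was highest in MA library 2 (61.8 FPKM).

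In the striatum, Eef2 stood highest in MA library 4 (807.5 FPKM). SA library 2 was the highest for Eif5a2 (18.2 FPKM) and for its share in Eif5a and Eif5a2 (9.60%) and the lowest for the share of Eif4ebp1 (42.4%). SA library 3 had the lowest share of Eef1a2 (72.0%). No cause was tested for any of these values.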

How the results depend on the processing

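The count of 0 members called for MA against SA in the striatum held under every pseudocount, filter, scaling and weighting tried and without each library, against 3 members at an unadjusted p under 0.05. In the follicle it became 10 with weighted libraries, ran from 0 to 12 without 1 library (12 without SA library 0), and was 3 at an unadjusted p under 0.05. For the interaction of treatment and tissue it became 13 with weighted libraries. It was 12 without SA library 0 of the follicle, a fit added after the data were seen. The share of all rows called in the weighted fits is not given here, so the counts of 10 and 13 cannot be set against the whole table. Between the tissues 49 to 55 members were called under all alternatives run. The direction between the tissues changed with the scaling for Eef1a1, Eef1e1, Eef2, Eif2ak2, Eif2ak4 and Eif4h, of which Eef2 was called in both directions (-0.59 as deposited and 1.09 with quantile normalization, log2). The cause was not tested.

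Without 1 library each, the MA minus SA difference of isoform shares, in percentage points, was -4.14 to -0.940 for Eef1a2, -2.32 to -0.920 for Eif4a2, -1.20 to -0.554 for Eif5a2, 2.49 to 6.58 for Eif4ebp1, 0.948 to 3.05 for Eif4e2 and 1.32 to 2.43 for Eif4h in the striatum. In the follicle it was -0.617 to -0.0571 for Eef1a2, 0.361 to 2.95 for Eif4a2, 0.0129 to 0.0620 for Eif5a2, -9.05 to -4.96 for Eif1b, -6.68 to -0.616 for Eif4ebp1 and 1.19 to 2.42 for Eif4e2. It changed sign for Eif1b in the striatum (-1.27 to 0.401) and Eif4h in the follicle (-1.76 to 0.768), where the difference with all libraries was near 0. The cause was not tested.

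No paired analysis was possible because the columns carry an index that the labels do not tie to a rat, although both tissues came from the same animals. Other length limits for short proteins, the Eif4g3 share and the log2 ratio of Eef1a2 in the follicle, listed at 0 in 2 libraries, were not run.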
